A study of Mus musculus with 1104 samples.

Results

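The Hox genes encode homeodomain transcription factors that lie in 4 clusters and record the position of a cell along the body axis. All 39 genes of the count table named Hoxa, Hoxb, Hoxc or Hoxd followed by a number were taken, out of 20646 genes: 11 in cluster A on chromosome 6, 10 in cluster B on chromosome 11, 9 in cluster C on chromosome 15 and 9 in cluster D on chromosome 2. Polyadenylated RNA was sequenced in bulk from wild type male C57BL/6 mice that ate a diet with 60 kcal% fat from 8 weeks of age, with 6 mice at each time point. The values below come from 13 organs at the start of the diet (0d, 78 libraries) and from 3 fat depots followed on it. Interscapular brown fat (bat) and inguinal subcutaneous white fat (iwat) were sampled at 14 times up to 12 weeks (12w), and epididymal visceral white fat (ewat) at 16 times up to 20w. No mice kept off the diet past 0d were analysed here, so the length of the diet and the age of the mice cannot be told apart, nor can the day of dissection. The p-values measure only the spread between these libraries.

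Genes at one end of a Hox cluster (paralogue groups 1 to 5) are switched on early and far forward in the embryo, and genes at the other end (groups 9 to 13) later and nearer the tail. Adult mesenchymal cells, among them the precursors of fat cells, keep much of this code, so that fat depots of different body regions carry different sets. Hox proteins bind DNA with cofactors of the Pbx, Meis and Pknox families, Polycomb and Trithorax proteins keep the clusters silent or active, and retinoic acid sets their borders in the embryo.

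The 324 libraries held 8462811 to 27036098 counts (median 14088854.5). By library total alone, 1 CPM (the usual unit of counts scaled by library size) stood for about 14.1 counts in the median library. The CPM given here also used a normalization factor per library, and 1 CPM stood for fewer counts where that factor was low. At 0d it was 0.234 to 0.329 in pancreas and 0.748 to 0.852 in brown fat. Levels were compared between genes only as CPM per kilobase (kb) of merged exons. In bulk tissue, fewer cells of a type and less RNA per cell cannot be told apart. Of the 39 members, 15 overlap another annotated gene on the same strand and 14 on the opposite one (23 in all), so the counting could have split or shared their reads. Hoxc5 is annotated across Hoxc6, Hoxc8, Hoxc9 and Hoxc10, and Hoxa3 across Hoxa4, Hoxa5 and Hoxa6. The soleus library of replicate 1 stood apart, with a normalization factor of 0.21 against 0.40 to 0.68 in the other 5.

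A pair of libraries from 3 days (3d) on the diet went against their labels. The library labelled inguinal 3d replicate 2 had Hoxc10 at 0.516 CPM and Hoxb9 at 10.1 CPM, where the other 83 inguinal libraries had 3.65 to 24.9 and 0 to 2.55 CPM. Its Tbx15, a transcription factor of subcutaneous fat, was at 0 (9.13 to 57.9 CPM in the others), and its Upk3b, a mesothelial gene, was at 48.9 CPM (0 to 1.72). The library labelled epididymal 3d replicate 2 showed the opposite, with Hoxc10 at 23.6 CPM and Hoxb9 at 0.627 CPM, against 0.0617 to 1.5 and 0.713 to 28.1 CPM in the other 95 epididymal libraries. Its Tbx15 was at 48.4 CPM and its Upk3b at 0, against 0 to 1.34 and 11.2 to 82.8 CPM. Both were kept under their labels, and counts of called members that include them are also given without both. The comparisons at 0d do not use them, and those of 12w or 20w with 0d use them only in the filter on low counts, the scaling and the estimate of the spread.

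Promoter sequences are shown for Hoxa5, Hoxa10, Hoxb8 and Hoxd8, a member of each direction of depot difference and 2 of the members that fell in epididymal fat. The RefSeq-derived table held promoters of 22 members (24 entries, out of 32851 in all), on GRCm38.p6. The 250 bases before the annotated start are shown 5′ to 3′ on the gene's strand, with CpG dinucleotides, the sites of DNA methylation in mammals, in capitals. All 4 windows are free of annotated exons: Hoxa5 at chr6:52204588-52204837 (minus strand), Hoxa10 at chr6:52240855-52241104 (minus strand), Hoxb8 at chr11:96281655-96281904 (plus strand) and Hoxd8 at chr2:74704365-74704614 (plus strand).
Hoxa5: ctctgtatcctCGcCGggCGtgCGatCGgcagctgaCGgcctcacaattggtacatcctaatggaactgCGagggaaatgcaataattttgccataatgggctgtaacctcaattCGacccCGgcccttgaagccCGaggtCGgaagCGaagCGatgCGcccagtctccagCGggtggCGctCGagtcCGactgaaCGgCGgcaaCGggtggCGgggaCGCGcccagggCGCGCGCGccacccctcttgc
Hoxa10: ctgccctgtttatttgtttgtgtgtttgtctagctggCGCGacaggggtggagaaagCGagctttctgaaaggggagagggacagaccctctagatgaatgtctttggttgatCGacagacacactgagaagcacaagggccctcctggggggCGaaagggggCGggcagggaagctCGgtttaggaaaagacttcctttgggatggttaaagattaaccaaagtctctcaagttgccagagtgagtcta
Hoxb8: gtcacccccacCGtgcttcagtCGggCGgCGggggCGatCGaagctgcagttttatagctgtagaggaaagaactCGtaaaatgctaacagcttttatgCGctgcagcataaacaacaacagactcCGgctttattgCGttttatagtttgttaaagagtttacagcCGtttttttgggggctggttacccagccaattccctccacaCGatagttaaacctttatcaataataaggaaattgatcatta
Hoxd8: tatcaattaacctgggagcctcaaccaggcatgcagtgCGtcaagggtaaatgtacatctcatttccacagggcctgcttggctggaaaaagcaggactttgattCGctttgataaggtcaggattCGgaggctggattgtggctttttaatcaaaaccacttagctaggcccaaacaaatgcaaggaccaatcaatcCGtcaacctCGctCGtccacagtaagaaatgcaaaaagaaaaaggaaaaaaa
Hoxa5 held 28 CpG, Hoxb8 12, Hoxa10 7 and Hoxd8 6. For Hoxa10 the window before its outermost start is shown. A second entry, at chr6:52234940-52235189, held 20 CpG with CCAAT and TATAAA. Over the 24 entries the median was 12.5 (range 2 to 35), against 6 over all promoters, and the median GC content was 58.6% against 52.4%. The letters CCAAT, read on both strands, were in 14 of 24 (58.3%) against 33.8% of all promoters, and among the 4 shown they were in Hoxa5, Hoxb8 and Hoxd8. TATAAA was in 4 of 24 (16.7%) against 12.4%, TTTATNG in 2 (8.33%) against 9.81% and TGATTNAT in 2 (8.33%) against 2.82%. The Hoxb8 window held TTTATNG and TATAAA, which can share letters on opposite strands. These matches describe the letters only.

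At 0d the members detected differed between organs of different body regions. A member was called detected where it had at least 1 CPM in all 6 libraries. Epididymal fat had 24 detected members and inguinal fat 22, of groups 1 to 10, whereas brown fat had 15, of groups 1 to 8. Hoxa9 and Hoxd9 averaged 1.17 and 1.44 CPM in brown fat but had libraries under 1 CPM. The gastrocnemius and soleus muscles of the hindlimb had 19 and 17, of groups 3 to 13 and 2 to 13. The small intestine had 10, of groups 3 to 9, liver 2 (Hoxb3 and Hoxb4) and pancreas 1 (Hoxb4). None was detected in the pituitary, hypothalamus, hippocampus, neocortex or olfactory bulb, which arise in front of the Hox domain. The summed CPM of all 39 was 392 in epididymal fat, 352 in gastrocnemius, 259 in soleus, 206 in brown fat and 199 in inguinal fat, then 34.2, 17.1 and 8.58 in small intestine, pancreas and liver, and 0.126 to 0.428 in the other 5 organs. Between 30 and 35 members had no count at all in the brain regions and the pituitary.

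**Figure D1:**
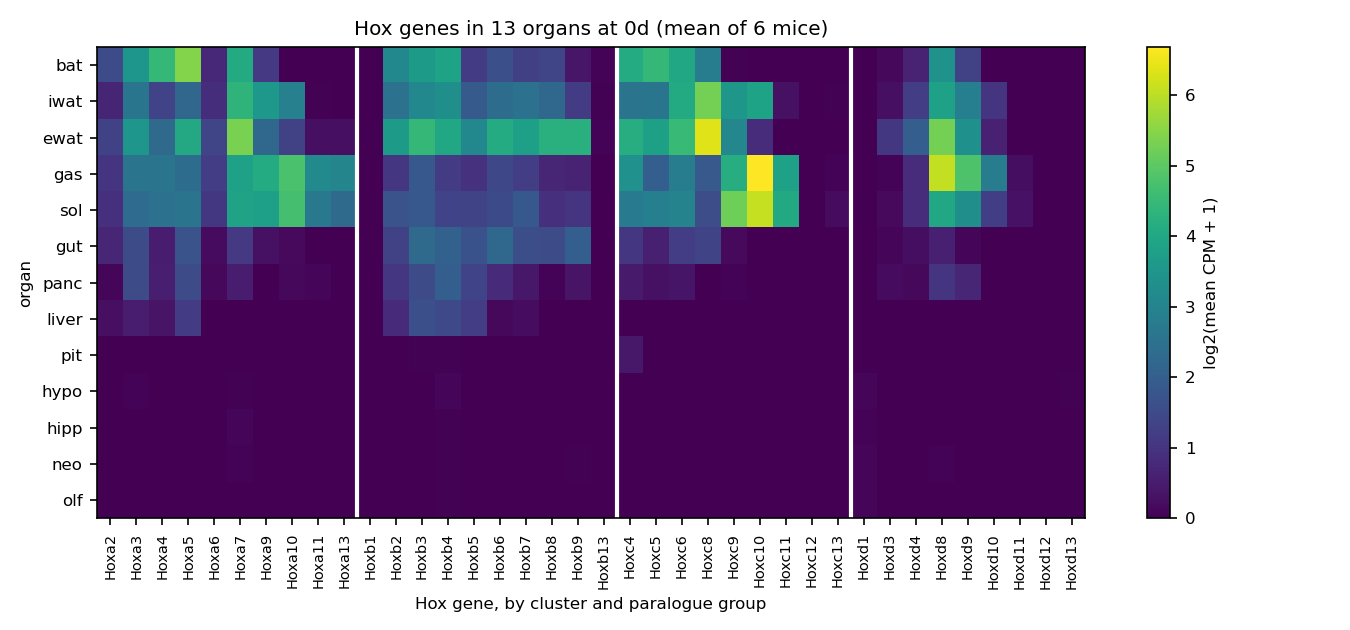
Mean level of Hox genes (columns, by cluster and paralogue group) in 13 organs at 0d (rows: bat, iwat and ewat for brown, inguinal and epididymal fat, gas and sol for gastrocnemius and soleus, gut for small intestine, panc for pancreas, liver, pit for pituitary, hypo for hypothalamus, hipp for hippocampus, neo for neocortex, olf for olfactory bulb), as log2 of mean CPM plus 1 over 6 libraries. Brighter colours are higher: brown fat is bright in groups up to 8 only, the white depots up to group 10 and the hindlimb muscles up to group 13, while the pituitary and brain rows stay dark.

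The leading members differed from organ to organ. Hoxa5, which patterns the neck and upper thorax, led brown fat with 22.8 CPM per kb, before Hoxa4 (13.2) and Hoxc5 (6.82). Hoxc8, a thoracic gene, led both white depots, with 13.6 CPM per kb in inguinal and 28.4 in epididymal fat. It was followed by Hoxc10 (7.18 CPM per kb) and Hoxa7 (6.68) in inguinal fat, and by Hoxd8 (14) and Hoxa7 (13.7) in epididymal fat. In muscle Hoxc10, a gene of the lumbar region and hindlimb, led with 53.3 CPM per kb in gastrocnemius and 35.7 in soleus. Its libraries had 92.9, 103 and 105 CPM (lowest, median, highest) in gastrocnemius and 47.7, 66.4 and 90.7 CPM in soleus. The ranges of the 2 muscles did not overlap.

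The next members in muscle were Hoxd8 (24.1 CPM per kb) and Hoxd9 (12.8) in gastrocnemius and Hoxc9 (14.8) and Hoxc11 (7.8) in soleus. The Hoxc9 level in soleus rested on replicate 1, the library that stood apart, with 103 CPM against 14.2 to 38.1 CPM in the other 5. Without it Hoxc9 had 9.25 CPM per kb, Hoxc10 37.8 and Hoxc11 8.07, and 21 members were detected in soleus. Hoxa11, Hoxa13 and Hoxc11, which pattern the lower limb and foot, were detected in both muscles and in no fat depot. In gastrocnemius Hoxa13 had 2.07, 7.92 and 11.3 CPM, and in soleus 3.25, 3.98 and 4.67 CPM. The intestine was led by cluster B, which gave 7 of its 10 detected members: Hoxb6 (1.93 CPM per kb), Hoxb7 (1.33) and Hoxb4 (1.26). In muscle cluster B gave 1 of 19 and 2 of 17 detected members. Without soleus replicate 1, the cluster B members detected in soleus were Hoxb2, Hoxb3, Hoxb4 and Hoxb7. Hoxb4 led in pancreas (1.16 CPM per kb; 1.62, 2.59 and 6 CPM) and in liver (0.7; 1.11, 1.81 and 2.65 CPM), so its ranges in these 2 organs overlapped.

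Among the fat depots, 15 members were detected in all 3, among them Hoxa4, Hoxa5, Hoxa7, Hoxb2, Hoxb3, Hoxb4, Hoxb8, Hoxc4, Hoxc5, Hoxc6, Hoxc8 and Hoxd8. By the same limit Hoxa9, Hoxa10, Hoxb5, Hoxb7, Hoxc9 and Hoxd9 were detected in both white depots and not in brown fat. In brown fat Hoxa9, Hoxb5, Hoxb7 and Hoxd9 still averaged 1.17 to 1.44 CPM, with at least 1 library under 1 CPM. Hoxc10 was detected in inguinal fat alone, and Hoxa6, Hoxb9 and Hoxd4 in epididymal fat alone. No member was shared by brown and epididymal fat without inguinal fat. Of the remaining 14, 10 were detected in no organ: Hoxa2, Hoxb1, Hoxb13, Hoxc12, Hoxc13, Hoxd1, Hoxd3, Hoxd11, Hoxd12 and Hoxd13. Hoxa2 averaged 1.96 CPM in brown fat, with a lowest library of 0.84 CPM. The other members of that 14 were the muscle genes above and Hoxd10, which was detected in gastrocnemius alone (4.55, 5.38 and 9.3 CPM).

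Brown fat was compared with inguinal fat at 0d to ask how a brown depot of the upper trunk differs from a white depot of the lower trunk. Body position and type of fat cannot be told apart in this comparison. Most tested genes of groups 1 to 5 were higher in brown fat, and genes of the later groups that passed the test were higher in inguinal fat. Hoxa5 had 38.2, 41.8 and 50.1 CPM (lowest, median, highest) in brown fat and 2.25, 3.58 and 4.95 CPM in inguinal fat, 12.2-fold higher in brown fat (log2 fold change 3.60 ± 0.15 SE, adjusted p = 5.8e-13). Hoxa4, a group 4 gene of the same cluster, had 18.8, 20.6 and 23.9 CPM against 1.21, 1.45 and 1.95 CPM, 14.4-fold higher (3.85 ± 0.23, adjusted p = 3.1e-11). In both genes the lowest brown fat library lay far above the highest inguinal one. Hoxc5 had 18.4, 19.9 and 26.9 CPM against 4.49, 4.92 and 5.99 CPM (2.11 ± 0.15, adjusted p = 3.4e-10). Hoxc4 had 12.9, 14.8 and 21.7 CPM against 2.68, 4.65 and 8.19 CPM (1.79 ± 0.22, adjusted p = 7.6e-07), again without overlap. Hoxa2, Hoxa3, Hoxb2, Hoxb3 and Hoxb4 were higher too, with log2 fold changes of 0.63 to 1.74.

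In the opposite direction, Hoxa10, a group 10 gene that patterns the lumbar region, had no count in any brown fat library. Its inguinal libraries had 4.99, 6.25 and 8.01 CPM, so it was at least 163-fold lower in brown fat, with the floor at 3 counts over the 6 brown fat libraries (adjusted p = 2.7e-11). Hoxc10 had counts in 1 brown fat library only (0.0972 CPM) and 11, 11.5 and 24.9 CPM in inguinal fat (log2 fold change -9.31 ± 0.48, adjusted p = 5.4e-12). Hoxc9 likewise had counts in 1 brown fat library (0.134 CPM) and 8.34, 10.5 and 12.7 CPM in inguinal fat (-8.25 ± 0.43, adjusted p = 5.9e-12). For these 3 genes brown fat was at or close to 0 while every inguinal library had clear counts. Hoxc10 had 1 count and Hoxc9 2 over the 6 brown fat libraries, under the floor of 3 counts. The sizes of these folds are therefore uncertain, and the 3 genes cannot be ranked by them. Hoxa9 had 0.65, 0.943 and 2 CPM against 8.2, 11.4 and 12.8 CPM (-3.18 ± 0.29, adjusted p = 1.1e-08). Hoxc8 had 3.68, 5.93 and 9.21 CPM against 25.9, 39.9 and 45.2 CPM (-2.60 ± 0.21, adjusted p = 2.6e-09). Neither gene's groups overlapped.

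**Figure D2:**
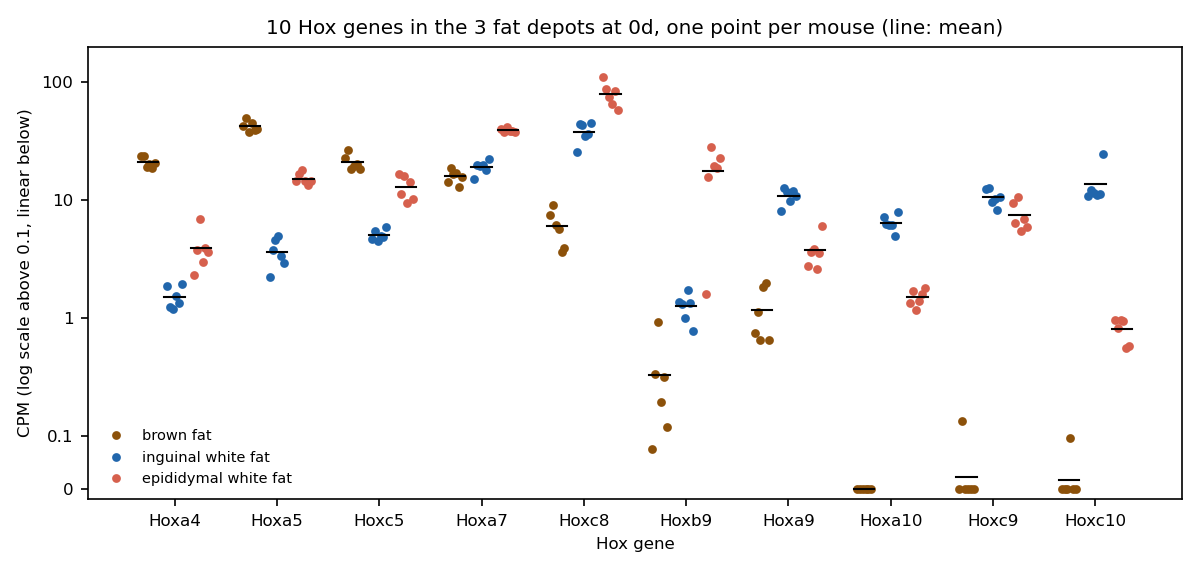
CPM of 10 Hox genes in each mouse's library at 0d in brown, inguinal and epididymal fat (6 points each, line at the mean; the axis is logarithmic above 0.1 CPM and linear below). Hoxa4, Hoxa5 and Hoxc5 are highest in brown fat, Hoxa10, Hoxc9 and Hoxc10 are near or at 0 there, and 1 epididymal point of Hoxb9 lies at 1.62 CPM, below the other 5.

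Of the 27 members with enough counts to test at 0d, 9 were higher in brown than in inguinal fat (34.1% of all 14229 genes tested) and 14 were lower (38.2% of all genes). Their median log2 fold change was -0.38, against -0.07 over all genes. The direction followed the place in the cluster. In groups 1 to 5, 9 of 12 were higher and 2 lower, Hoxb5 (-1.09) and Hoxd4 (-1.17) (median 0.93). In groups 6 to 8, 5 of 8 were lower (median -0.65), and in groups 9 to 13 all 7 tested were lower (median -7.01). That last median is the estimate for Hoxd10, which had no count in brown fat. Only a bound holds for Hoxd10, at least 25.1-fold lower. Spearman's rho of the log2 fold change with the group number was -0.83 across these 27 genes, which share libraries and clusters and are not independent. Hoxa6, Hoxa7 and Hoxc6 missed the threshold, with log2 fold changes of -0.24 to -0.05. The other 12 members were too low to test: Hoxa11, Hoxa13, Hoxb1, Hoxb13, Hoxc11, Hoxc12, Hoxc13, Hoxd1, Hoxd3, Hoxd11, Hoxd12 and Hoxd13.

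Markers of other tissues moved with some of these values. Inguinal replicate 6 had the group's highest Hoxc10 (24.9 CPM; the others 11 to 12.2) and a summed level of the skeletal muscle markers of 39134 CPM. The lowest sum in inguinal fat was 32.2 CPM, and gastrocnemius had 357645 to 446535 CPM with a mean Hoxc10 of 102 CPM. Without the 4 libraries of brown and inguinal fat at 0d whose muscle markers passed 1000 CPM, the Hoxc10 difference was -8.69 and the split was 9 higher and 13 lower. The stromal list, genes of fibroblasts and fat cell precursors, was lower in brown fat for 16 of its 18 genes and higher for 1 (median -1.54; summed 1272 to 3224 against 4139 to 9953 CPM). The part of stromal cell content in the lower Hox levels was not tested. The brown adipocyte markers, Ucp1 among them, summed to 12948 to 19788 CPM in brown fat, 192 to 426 in inguinal and 76.2 to 103 in epididymal fat.

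Epididymal fat was compared with inguinal fat at 0d to ask how a visceral and a subcutaneous depot differ. Most members were higher in epididymal fat, those of cluster B by the most, and 3 members of groups 9 and 10 were higher in inguinal fat. Hoxb9 had 1.62, 19.1 and 28.1 CPM in epididymal and 0.782, 1.33 and 1.73 CPM in inguinal fat, 14.7-fold higher (log2 fold change 3.88 ± 0.49, adjusted p = 3.4e-06). Hoxb8 had 5.39, 18.7 and 26.8 CPM against 3.19, 3.8 and 3.97 CPM (2.33 ± 0.26, adjusted p = 6.3e-07). Hoxb6 had 5.71, 16.6 and 24.5 CPM against 2.41, 4.36 and 5.99 CPM (2.06 ± 0.28, adjusted p = 7.7e-06). Hoxb9 and Hoxb6 overlapped between the depots through 1 epididymal library, replicate 1. Outside cluster B, Hoxa5 had 13.5, 14.6 and 18.1 CPM in epididymal fat, above every inguinal library (2.13 ± 0.15, adjusted p = 1.9e-09). Hoxa7 had 37.9, 38.5 and 42.2 CPM against 15.2 to 22.3 CPM in inguinal fat (1.10 ± 0.10, adjusted p = 3.7e-08). Hoxc8, the leading member of both depots, had 58.7, 79.9 and 111 CPM (1.13 ± 0.19, adjusted p = 8.5e-05).

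The 3 lower members were Hoxc10, Hoxa10 and Hoxa9. Hoxc10 had 0.559, 0.887 and 0.97 CPM in epididymal fat, 16-fold below inguinal fat (-4.00 ± 0.29, adjusted p = 3.2e-09). Hoxa10 had 1.17, 1.51 and 1.81 CPM (-2.03 ± 0.19, adjusted p = 8.2e-07) and Hoxa9 had 2.63, 3.61 and 6.07 CPM (-1.47 ± 0.26, adjusted p = 0.00012). No epididymal library of these genes reached the lowest inguinal one. Hoxc9, a neighbour of Hoxc10, had 5.51, 6.73 and 10.6 CPM and missed the threshold (-0.44, adjusted p = 0.12).

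Of the 27 members tested, 21 were higher in epididymal fat (27.2% of all genes) and 3 were lower (24.2%), with a median log2 fold change of 1.26 against 0.04 over all genes. All 8 tested members of cluster B were higher. In groups 1 to 5, 11 of 12 were higher and none lower, in groups 6 to 8 all 8 were higher, and in groups 9 to 13, 2 were higher and 3 lower of 7 (median -0.80). Epididymal replicate 1 at 0d was low in Hoxb6, Hoxb7, Hoxb8 and Hoxb9 (1.62 to 5.71 CPM), while its Hoxc8 (111 CPM) was the highest of the group. Its mesothelial markers, genes of the lining of the body cavity, summed to 90.1 CPM, against 173 to 361 in the other 5 libraries and 6.48 to 11.2 in inguinal fat. All 9 tested mesothelial genes were higher in epididymal than in inguinal fat. Keratinocyte and mammary epithelium markers summed to 9.91 CPM in epididymal replicate 1, against 83.4 to 147 in the other 5 libraries and 8.34 to 62.7 in inguinal fat. Only 5 genes of that list were tested, with 2 higher in epididymal fat and 0 lower. Without that library the split was 22 higher and 3 lower and the Hoxb9 difference was 4.12. The part of mesothelial or epithelial cells in the Hoxb levels was not tested. Lymph node markers summed to 863 to 2475 CPM in inguinal and 70.8 to 151 CPM in epididymal fat.

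**Figure D3:**
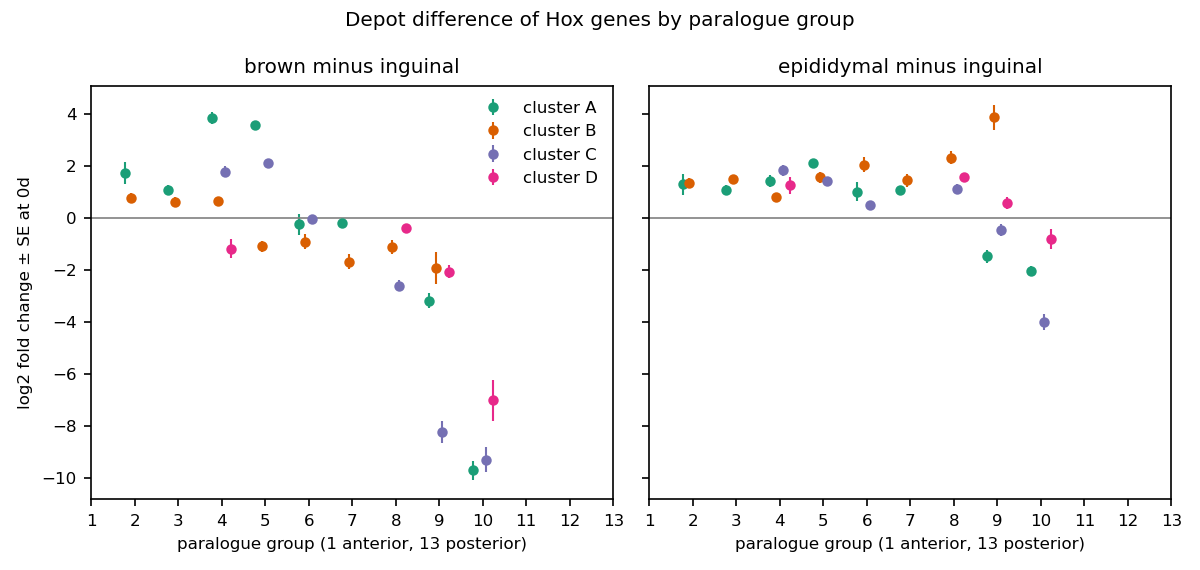
Log2 fold change at 0d (± SE) of tested Hox genes against paralogue group, for brown minus inguinal fat and for epididymal minus inguinal fat, coloured by cluster. The brown fat panel spans -1.17 to 3.85 in groups 1 to 5 and is at -1.93 and below in groups 9 to 13, while the epididymal panel is mostly above 0 until group 9.

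Brown and epididymal fat were then set against each other, with the same 0d libraries as in the comparisons above. Brown fat was higher in 3 members (32.1% of all genes were higher) and lower in 19 (39.5%) of 27, with a median of -1.71 against -0.10 over all genes. The 3 higher members were Hoxa4 (log2 fold change 2.42 ± 0.21, adjusted p = 6.8e-09), Hoxa5 (1.48 ± 0.14, adjusted p = 2e-08) and Hoxc5 (0.69 ± 0.14, adjusted p = 0.00026). Among members with at least 1 CPM in epididymal fat the largest deficits were in Hoxc9 (-7.81 ± 0.43, adjusted p = 1.5e-11), in Hoxa10 (at least 38-fold lower, adjusted p = 1.1e-09), in Hoxb9 (-5.81 ± 0.59, adjusted p = 6e-08) and in Hoxc8 (-3.73 ± 0.22, adjusted p = 3.4e-11). The Hoxc9 estimate rests on 2 counts in brown fat, so its size is uncertain. All 8 tested members of groups 6 to 8 and all 7 of groups 9 to 13 were lower in brown fat. For Hoxa5 the order of the depots was thus brown, epididymal, inguinal, and for Hoxc10 it was inguinal, epididymal, brown, each without overlap of neighbours.

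The DNA-binding partners of Hox proteins and the retinoic acid pathway were looked at beside the members. Of all genes tested at 0d, 34.1% were higher and 38.2% lower in brown than in inguinal fat. In epididymal against inguinal fat these shares were 27.2% and 24.2%. Of the 9 cofactor genes, 1 was higher and 5 lower in brown than in inguinal fat (median -0.51). Meis1 was higher in brown fat (0.63) and higher in epididymal than in inguinal fat (1.27 ± 0.16), while Meis3 was lower in brown fat (-2.35 ± 0.19). In epididymal against inguinal fat 2 cofactors were higher and 1 lower (median 0.17). Of 11 tested genes of retinoic acid synthesis, breakdown and signalling and of other Hox inducers, 3 were higher and 8 lower in brown than in inguinal fat (median -1.66). Rarb, a retinoic acid receptor that is itself induced by its ligand, was higher in brown fat (2.69 ± 0.21), and Cyp26b1, which degrades retinoic acid, was lower (-4.28 ± 0.31). In epididymal against inguinal fat 4 of these were higher, among them the retinoic acid-synthesising enzymes Aldh1a1 (1.85) and Aldh1a2 (2.04), and 4 were lower, among them Gdf11 (-2.34).

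On the diet, the Hox genes of epididymal fat fell across all 4 clusters. At 12w, 26 of 30 tested members were lower than at 0d (29.3% of all 15225 genes) and none was higher (31%), with a median log2 fold change of -1.43 against a median of 0.00 over all genes. An unadjusted p under 0.05 in edgeR and DESeq2's calls also gave 0 higher members here, at 20w, along time and in the interaction with inguinal fat. Hoxa7 had 37.9 to 42.2 CPM at 0d and 5.86, 5.97 and 6.34 CPM at 12w, 6.17-fold lower (log2 fold change -2.62 ± 0.17, adjusted p = 3.3e-23). The 12w libraries of Hoxa7 lay in a narrow band far under every 0d library. Hoxb8 had 5.39 to 26.8 CPM at 0d and 2.22 to 3.29 CPM at 12w (-2.60 ± 0.48, adjusted p = 2.7e-06). Hoxb9 had 1.62 to 28.1 CPM at 0d and 0.713, 1.52 and 2.03 CPM at 12w (-3.50 ± 0.56, adjusted p = 9.7e-08), with overlap only through 0d replicate 1. Without that library Hoxb9 fell by 3.74 on the log2 scale and 26 members were still lower. Hoxa5 fell from a range of 13.5 to 18.1 CPM to 4.17, 4.81 and 5.72 CPM (-1.57 ± 0.16, adjusted p = 8.8e-14). Hoxd8 fell from a range of 28.3 to 49.1 CPM to one of 11.2 to 15.6 CPM (-1.44 ± 0.16, adjusted p = 3e-12). Hoxc8, the depot's leading member, fell less, to 23.2, 35.7 and 54 CPM (-1.06 ± 0.17, adjusted p = 7.2e-08). Apart from Hoxb9, the members called lower whose libraries overlapped those at 0d were Hoxa2, Hoxd3, Hoxd4 and Hoxd10.

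Lower members came from every part of the clusters at 12w. All 13 tested members of groups 1 to 5 were lower (median -1.35), all 8 of groups 6 to 8 (median -1.59) and 5 of 9 of groups 9 to 13 (median -1.73). The members that missed the threshold were Hoxa10 (-1.31, adjusted p = 0.085), Hoxc10 (-1.12, adjusted p = 0.12), Hoxa11 and Hoxa13, which were low in this depot. At 20w, 25 of 30 were lower (29.8% of all genes) and none higher, with a median of -1.28. Hoxb9 then had 1.12 to 2.9 CPM (-3.04 ± 0.54, adjusted p = 1.3e-06), Hoxb8 2.53 to 4.48 CPM (-2.30 ± 0.47, adjusted p = 1.9e-05) and Hoxa7 7.61, 8.34 and 9.09 CPM (-2.15 ± 0.16, adjusted p = 1.4e-19). All comparisons of later times with 0d in this depot, those of 12w and 20w among them, share the 0d libraries and are not independent. Without the 2 libraries against their labels 27 members were lower at 12w, with Hoxc10 now among them, and 25 at 20w.

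Hoxa7 and Hoxb9 were lower from 3d on. Mean Hoxa7 was 39.3 CPM at 0d, 34.1 at 1d, 26.5 at 3d, 27.2 at 2w, 23.7 at 4w, 18.8 at 6w, 8.1 at 8w, 6.02 at 12w and 8.34 at 20w, and it was called lower at every time from 3d. Mean Hoxb9 was 17.8 CPM at 0d, 8.45 at 1d (-1.07, adjusted p = 0.13) and 3.57 at 3d (-2.26, adjusted p = 0.00031), and it too was lower at every time from 3d. Without the 2 libraries against their labels the 3d means were 27.7 CPM for Hoxa7 (-0.46, adjusted p = 0.019) and 4.15 CPM for Hoxb9 (-2.06, adjusted p = 0.0017), and both genes were still lower at 14 of 15 times. Hoxc8 instead was higher at 1d (118 CPM; 0.58 ± 0.17, adjusted p = 0.0087) and at 2w (0.48, adjusted p = 0.018), and lower at 8w, 12w, 16w and 20w. At 1d edgeR called no member lower (8.26% of all genes; 2 at an unadjusted p under 0.05) and 3 were higher (10.8%): Hoxc8, Hoxc6 and Hoxa11. For Hoxa11 the highest library, replicate 4, had 9.62 CPM and epididymis markers that summed to 1380 CPM.

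More members were lower at the later times. There were 11 of 30 at 3d (16.7% of all genes), or 8 without the 2 libraries against their labels, 15 at 3w (14.6%), 4 at 4w (15.1%), 17 at 5w (22%), 26 at 8w (27.3%), 22 at 10w (26.2%) and 25 at 16w (29.1%). Along the logarithm of time over the 14 times up to 12w, 25 of 27 tested members fell (33.5% of all 14548 genes) and none rose (32.5%), and the split was the same without the 2 libraries. The slopes with the smallest p were those of Hoxa5 (-0.25 ± 0.02 log2 per doubling of days plus 1, adjusted p = 4.7e-20), Hoxa7 (-0.33 ± 0.03, adjusted p = 1.5e-17) and Hoxa4 (-0.28 ± 0.03, adjusted p = 3.7e-14). Hoxa6 and Hoxd4 missed the threshold. The median slope was -0.17 in groups 1 to 5 and in groups 6 to 8 and -0.32 in groups 9 to 13.

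The cell type markers of epididymal fat moved over the same weeks. Of all genes tested at 12w, 31% were higher and 29.3% lower. Of 18 macrophage genes 17 were higher at 12w and none lower (median 2.71), and their sum went from 1291 to 1882 CPM at 0d to 6142 to 13472 CPM. Of 16 adipocyte genes 2 were higher and 12 lower (median -1.22; 53022 to 76601 CPM, then 23719 to 37143). Of 10 endothelial genes 9 were lower (summed 1022 to 1659 CPM, then 393 to 804). Of 18 stromal genes 10 were higher and none lower (median 0.70; 3347 to 5644 CPM, then 8459 to 10404). Of 10 mesothelial genes 2 were higher and 3 lower (median 0.07; 90.1 to 361 CPM, then 78.8 to 124). No gene of these 5 lists was at 0 counts in either group. The keratinocyte and mammary epithelium list had 1 of 9 tested genes higher and 3 lower (median -0.79). Its sum went from 9.91, 91 and 147 CPM (lowest, median, highest) to 7.48, 9.25 and 32 CPM. Of its 14 genes 4 were at 0 counts in each group. The part of these lists in the Hox decrease was not tested.

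Some libraries of this depot carried markers of the epididymis, the duct beside it. In 21 of the 95 libraries (without the one against its label) the epididymis markers summed to over 50 CPM (105 to 5273, median 821), against 0.0709 to 26.2 in the other 74. Of the 15 markers, 3 were at 0 counts in the 0d group and 4 in the 12w group. Hoxb9 had a median of 8.18 CPM (1.12 to 15.9) in the 21 and 2.5 CPM (0.713 to 28.1) in the 74. Hoxa11 and Hoxa13, genes of the reproductive ducts, reached 10.7 and 4.98 CPM in 1 of the 21 (4w replicate 2) and 9.62 and 3.06 CPM in another (1d replicate 4), and stayed at or under 0.528 and 1.38 CPM in the 74. Without the 21, 25 members were lower at 12w and 23 at 20w, and Hoxb9 fell by 3.59 at 12w.

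In inguinal fat the members moved in both directions. At 12w, 4 of 28 were higher (21.5% of all 14704 genes) and 4 lower (23.1%), with a median of 0.11 against -0.01 over all genes, so neither count exceeded the background. Hoxa10 had 4.99 to 8.01 CPM at 0d and 11.9, 13.5 and 17 CPM at 12w (1.16 ± 0.23, adjusted p = 3.9e-05). Hoxc5 had 4.49 to 5.99 CPM and then 9.71, 11.9 and 13 CPM (1.26 ± 0.26, adjusted p = 4.6e-05). Hoxc8 had 25.9 to 45.2 CPM and then 56.3, 69.8 and 83.1 CPM (0.91 ± 0.21, adjusted p = 0.00024). In these 3 genes every 12w library lay above every 0d library. The fourth higher member was Hoxb5 (0.81 ± 0.25, adjusted p = 0.0059).

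The lower members in inguinal fat were Hoxd10 (-1.80 ± 0.69, adjusted p = 0.028), Hoxd9, Hoxa7 and Hoxb4. Hoxa7 went from a range of 15.2 to 22.3 CPM to one of 11.9 to 13.3 CPM (-0.57 ± 0.18, adjusted p = 0.006) without overlap. Hoxd9 went from a range of 4.33 to 8.64 CPM to one of 3.21 to 4.56 CPM (-0.71 ± 0.24, adjusted p = 0.011), and Hoxb4 from one of 6.32 to 11.7 CPM to one of 4.43 to 7.97 CPM (-0.41 ± 0.13, adjusted p = 0.0083), both with overlap. Hoxc10, which marks this depot among the 3, had 12.9 to 19.9 CPM at 12w and missed the threshold (0.24 ± 0.30, adjusted p = 0.55). Without the 2 libraries against their labels 4 were higher and 5 lower, and without the 0d libraries rich in muscle markers 4 were higher and 3 lower. The fall of the lymph node markers was far larger: all 14 were lower at 12w (median -6.64; 863 to 2475 CPM, then 12.6 to 35.3 CPM). Stromal genes were higher for 7 and lower for 1 (median 0.34; 4139 to 9953 CPM, then 7792 to 9526 CPM). Of 16 skeletal muscle genes 3 were higher and none lower (median 1.13), and their sum went from 32.2, 195 and 39134 CPM (lowest, median, highest) to 7954, 13141 and 35633 CPM. Hoxa10 averaged 26.4 CPM in gastrocnemius. The part of these cells in the Hox changes was not tested.

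The comparisons of the 13 later times with 0d in inguinal fat share the 0d libraries and are not independent. Over them Hoxa10 was called higher at 10 of 13 times, and Hoxc5 and Hoxc8 at 9 each. These became 12 for Hoxa10, 9 for Hoxc5 and 8 for Hoxc8 without the 2 libraries against their labels. At 3d the members called higher were Hoxc5 and Hoxc8 with them and Hoxa9 and Hoxa10 without them. At 1d edgeR called no member in inguinal fat, either higher (0.524% of all genes) or lower (0.0816%), and 6 had an unadjusted p under 0.05, all higher. Along the logarithm of time 5 of 28 rose (27.6% of all 14363 genes) and 7 fell (32.6%). Hoxc8 (0.14 per doubling, adjusted p = 2.5e-08), Hoxc5 (0.15, adjusted p = 2.4e-07) and Hoxa10 (0.13, adjusted p = 1.9e-06) led the rises. Hoxb4 (-0.07, adjusted p = 9.3e-07), Hoxa7 (-0.08, adjusted p = 2e-05) and Hoxd9 (-0.09, adjusted p = 0.0021) led the falls. Without the 2 libraries against their labels 5 rose and 6 fell.

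In brown fat 3 of 21 tested members were higher at 12w (14.4% of all 13196 genes) and 4 lower (13.2%), with a median of -0.04 against 0.00. Hoxa4 had 18.8 to 23.9 CPM at 0d and 10.1, 12.9 and 15.9 CPM at 12w (-0.68 ± 0.15, adjusted p = 0.0002). Hoxa5, the depot's leading member, had 38.2 to 50.1 CPM and then 29.4 to 38.1 CPM (-0.38 ± 0.12, adjusted p = 0.0082). The 0d and 12w libraries did not overlap for either gene. Hoxa9 fell from a range of 0.65 to 2 CPM to one of 0.209 to 0.385 CPM (-1.85 ± 0.51, adjusted p = 0.0035), and Hoxb3 from one of 10.3 to 12.5 CPM to one of 6.5 to 10.8 CPM (-0.44 ± 0.16, adjusted p = 0.03).

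The higher members in brown fat were Hoxb6, Hoxb5 and Hoxc5. Hoxc5 had 18.4 to 26.9 CPM at 0d and 29.8, 32.2 and 34.1 CPM at 12w (0.62 ± 0.18, adjusted p = 0.0058). It stood at 42.9 CPM after 1d (1.00 ± 0.18, adjusted p = 1.7e-05) and was called higher at 12 of 13 times, while its slope along time was 0.00 (adjusted p = 0.96). All 13 comparisons use the same 0d libraries, so these calls are not independent. Hoxb6 had 1.47 to 2.7 CPM at 0d and 3.19 to 5.3 CPM at 12w (1.00 ± 0.32, adjusted p = 0.014), without overlap, but 0.92 and an adjusted p of 0.062 without the 0d libraries rich in muscle markers. Hoxb5 had 0.9 to 2.1 CPM and then 1.28 to 3.19 CPM (0.89 ± 0.29, adjusted p = 0.017), with overlap. Along time 4 members rose (22.7% of all 12805 genes), all of cluster B: Hoxb6 (0.17 ± 0.03, adjusted p = 1.1e-05), Hoxb8 (0.11, adjusted p = 0.0042), Hoxb7 (0.08, adjusted p = 0.021) and Hoxb5 (0.08, adjusted p = 0.033). Another 6 fell (18%), led by Hoxa4 (-0.10 ± 0.02, adjusted p = 5.9e-07), Hoxa2 (-0.19, adjusted p = 1.2e-05) and Hoxb2 (-0.07, adjusted p = 4.4e-05). Macrophage genes were higher in brown fat at 12w for 12 and lower for none (median 0.84; 210 to 595 CPM, then 400 to 843 CPM). Of 16 adipocyte genes 2 were higher and 8 lower (median -0.22; 46052 to 50407 CPM, then 30939 to 34458 CPM), and of 10 endothelial genes 5 were higher and none lower (median 0.62; 1040 to 1359 CPM, then 1529 to 1876 CPM). Of 12 brown adipocyte genes 4 were lower and none higher (12948 to 19788 CPM, then 12078 to 15802 CPM). The part of these cells in the Hox changes of brown fat was not tested.

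**Figure D4:**
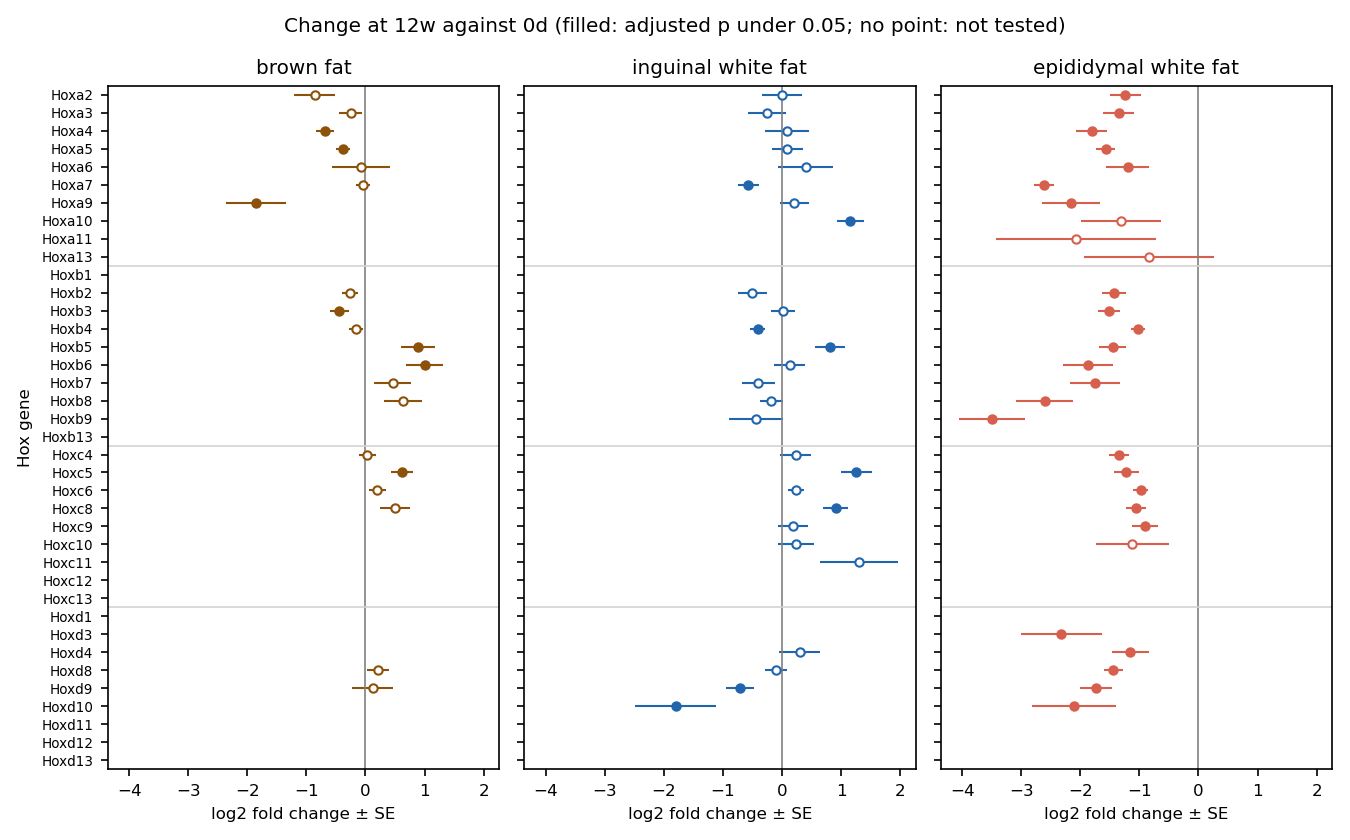
Log2 fold change (± SE) at 12w against 0d of tested Hox genes in brown, inguinal and epididymal fat, filled where the adjusted p was under 0.05. All filled points of the epididymal panel lie below 0, while the brown and inguinal panels have 7 and 8 on both sides of 0.

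Whether the change at 12w differed between depots was tested as an interaction. The epididymal change was lower than the inguinal one for 26 of 31 members (20.4% of all 15637 genes) and higher for none (19%), with a median difference of -1.58 against -0.07. The smallest p were those of Hoxa7 (difference of log2 changes -2.11 ± 0.25, adjusted p = 6.4e-12), Hoxc5 (-2.54 ± 0.32, adjusted p = 9.2e-11) and Hoxc8 (-2.03 ± 0.27, adjusted p = 4.8e-10). Hoxc5 and Hoxc8 fell in epididymal and rose in inguinal fat, whereas Hoxa7 fell in both and by more in epididymal fat. Without the 2 libraries against their labels 28 members were lower, and without the 0d libraries rich in muscle markers 22. Between brown and inguinal fat 1 member differed in each direction of 28 (16.7% and 13.7% of all 14829 genes): Hoxa7 (0.57 ± 0.21, adjusted p = 0.03) and Hoxa9 (-2.02 ± 0.54, adjusted p = 0.0021). Without the 0d libraries rich in muscle markers Hoxa7 missed the threshold (0.52, adjusted p = 0.097) and the split was 0 higher and 2 lower. It stayed at 1 in each direction without the 2 libraries against their labels.

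The cofactors and the retinoic acid genes did not all move with the members at 12w. Of all genes tested, 31% were higher and 29.3% lower in epididymal fat. These shares were 21.5% and 23.1% in inguinal fat and 14.4% and 13.2% in brown fat. In epididymal fat 2 of the 9 cofactors were higher and 3 lower (median 0.12): Meis1 was lower (-0.89 ± 0.19, adjusted p = 3.2e-05) as was Pbx2 (-0.43), and Meis3 (0.30) and Pknox1 (0.23) were higher. In inguinal fat 1 was higher and 5 were lower (median -0.37), among them Pbx2 (-0.95), and in brown fat edgeR called none of 8 tested. Of the retinoic acid genes, 4 were higher and 6 lower in epididymal fat (median -0.37), with the receptors Rxra (-0.90) and Rarg (-0.75) lower and the synthesising enzymes Aldh1a2 (0.80) and Aldh1a3 (0.78) higher. In brown fat 5 were higher and 1 lower (median 0.43), led by Cyp26b1 (2.99 ± 0.58, adjusted p = 3.1e-05). In inguinal fat 4 were higher and 4 lower, with Aldh1a3 (1.22) and Aldh1a1 (1.36) higher and Rxrb (-0.74) lower.

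Over the 13 organs at 0d, the genes outside the family whose mean log2 CPM ran most like that of Hoxc8, the member with the highest mean level over the 3 fat depots (14.7 CPM per kb), were Fbxo39 (Pearson's r = 0.979), H2-M9 (0.965), Retn (0.962) and Lep (0.960). Retn and Lep encode the fat cell hormones resistin and leptin. Within the family Hoxb8 (0.978) and Hoxd4 (0.973) were most like it. At each of the 13 points the genes compared come from the same libraries, at the same depth.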

How the data were processed

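Polyadenylated RNA was made into strand-specific libraries, per the labels' protocols. The authors deposited 1 table of raw counts per gene, without normalization. The submitters' processing notes name FastQC 0.11.7, Trimmomatic 0.38, HISAT2 2.1.0, SAMtools 1.9, featureCounts 1.6.3 and the build GRCm38. Which annotation was counted, and whether reads were assigned by strand, is not given in the sources used here. Columns were matched to samples by their names, and 780 of 1104 columns (other organs after 0d) were not used. The 39 members and the gene lists were chosen with earlier results of these data known.

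CPM were computed with TMM factors over all 324 libraries, and per kilobase with GENCODE M21 merged exon lengths. Tests used edgeR 4.0.16 (quasi-likelihood, TMM and filterByExpr within each fit, two-sided) in R 4.3.3, with Benjamini-Hochberg adjustment over all genes tested and a threshold of 0.05. Folds therefore differ slightly from ratios of CPM. At 0d the 3 depots shared 1 fit, each depot's time points shared 1 fit, slopes used log2(days + 1) up to 12w, and interactions used both depots up to 12w. Members named with full values were those with the largest called changes or smallest p in each comparison (at least 1 CPM in the higher group) and the 3 with the highest CPM per kb in each organ. Alternatives were RLE scaling, no filter, DESeq2 1.42.0, limma 3.58.1 voom with quality weights, a replicate block, other sets of libraries and leaving out each replicate. Those without the libraries against their labels, or rich in markers of other tissues, were added after seeing the data. The fits were tested on simulated data. They recovered 54.5% of simulated 2-fold changes at 12w in inguinal, 61.9% in brown and 63% in epididymal fat. For 1.5-fold changes these shares were 28.4%, 58.1% and 61.4%. A member that missed the threshold may thus still have changed. No pair of libraries of 1 group agreed within sampling noise (810 pairs, lowest chi-square per degree of freedom 2.37). Some genes that are counted in these totals are not reported by name, and the figures leave them out.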

Additional observations from a re-analysis of the deposited data

Results flagged for a closer look

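Within groups of 6 libraries, the highest or lowest library of a named member was set apart from the rest by most of the group's range in 9 of 140 groups looked at, where chance gives about 1 in 20. In epididymal fat at 0d these were Hoxa4 in replicate 3 (6.94 CPM; the others 2.32 to 3.91) and Hoxa9 in replicate 6 (6.07 CPM; 2.63 to 3.88). At 12w they were Hoxa9 in replicate 2 (0.143 CPM; 0.699 to 1.02) and Hoxc9 in replicate 3 (4.59 CPM; 3.43 to 3.85), and at 20w Hoxa10 in replicate 6 (2.42 CPM; 0.352 to 1.03) and Hoxb2 in replicate 5 (1.58 CPM; 3.22 to 3.69). The 20w replicate 6 library is one of those with epididymis markers. In inguinal fat at 0d, replicate 6, the library richest in muscle markers, stood apart in Hoxc10 (24.9 CPM; 11 to 12.2) and Hoxb8 (3.19 CPM; 3.74 to 3.97). In brown fat at 0d Hoxb5 stood apart in replicate 5 (2.1 CPM; 0.9 to 1.17).

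The change at 12w differed between epididymal and inguinal fat, by an interaction test, for 26 members. The differences of log2 changes in cluster A included -1.30 for Hoxa2, -1.16 for Hoxa3, -1.94 for Hoxa4, -1.71 for Hoxa5, -1.66 for Hoxa6, -2.11 for Hoxa7, -2.43 for Hoxa9 and -2.52 for Hoxa10. In cluster B they were -0.99 for Hoxb2, -1.58 for Hoxb3, -0.66 for Hoxb4, -2.32 for Hoxb5, -2.05 for Hoxb6, -1.41 for Hoxb7, -2.48 for Hoxb8 and -3.12 for Hoxb9. In cluster C they were -1.63 for Hoxc4, -2.54 for Hoxc5, -1.27 for Hoxc6, -2.03 for Hoxc8 and -1.15 for Hoxc9, and in cluster D -2.37 for Hoxd3, -1.51 for Hoxd4, -1.39 for Hoxd8 and -1.08 for Hoxd9. Between brown and inguinal fat the change differed for Hoxa7 (0.57) and Hoxa9 (-2.02).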

How the results depend on the processing

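No result changed direction under any alternative run. RLE scaling, DESeq2 and the replicate block moved no count of called members by more than 1.5 times. With the replicate block the called members numbered 23, 24 and 23 for brown against inguinal, epididymal against inguinal and brown against epididymal fat at 0d, 7, 8 and 26 at 12w in brown, inguinal and epididymal fat, 25 at 20w, 10, 12 and 26 for the slopes, and 26 and 2 for the interactions. The same-numbered libraries were not treated as paired, since replicate numbers are not stated to mark mice. In no pair of groups did all 6 pairs have deviations that correlated above 0.1, which cannot exclude that some share a mouse. The nearest were brown and inguinal fat at 0d (0.10 to 0.62, 5 of 6 above 0.1) and epididymal and inguinal fat at 12w (0.07 to 0.36, 5 of 6, with 5 libraries that correlated best with their own number), a hint from the data and not from the design.

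In inguinal fat at 12w voom with quality weights called 16 members (8 in each direction) and the fit without replicate 4 called 5. The interaction of brown and inguinal fat called 9 with only the groups compared and 12 with voom, and 1 without replicate 3, 4 or 5. Leaving out 1 replicate gave 3 to 7 called members in brown, 5 to 8 in inguinal and 25 to 27 in epididymal fat at 12w, 23 to 25 at 20w, 20 to 25 for the epididymal and 1 to 3 for the brown fat interaction, 21 to 24, 22 to 24 and 22 to 23 for the 3 comparisons at 0d in the order above, and 8 to 10, 10 to 12 and 25 for the slopes. The lowest count in brown fat, 3, came without replicate 4. With levels scaled by library total alone, 11 members were detected in soleus, 0 in pancreas and 0 in liver, and pancreas had 3 with RLE scaling or with a limit of 0.5 CPM. Of single genes, 843 alternatives stayed on their side of the threshold and 21 did not, among them Hoxb3, Hoxb5 and Hoxb6 in brown fat and Hoxd9 and Hoxb4 in inguinal fat at 12w. The causes were not tested. Depth limits the low members: 3 counts over 6 libraries stood for 0.0397 CPM in brown, 0.0278 in inguinal and 0.0255 in epididymal fat. These values were the floor used for members without a count. Means below it did occur, as for Hoxc9 (0.0223 CPM) and Hoxc10 (0.0162 CPM) in brown fat.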

Other observations

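Genes of the proteins that keep Hox clusters silent or active were followed beside the members. Of all genes tested at 12w, 31% were higher and 29.3% lower in epididymal fat. These shares were 21.5% and 23.1% in inguinal fat and 14.4% and 13.2% in brown fat. At 0d they were 34.1% and 38.2% for brown against inguinal fat. In epididymal fat at 12w, 6 of 21 Polycomb genes were higher and 9 lower (median -0.17), with Cbx7, a reader of the repressive histone mark, lower (-1.76 ± 0.19, adjusted p = 1.4e-13) and Phf19 higher (1.31). In inguinal fat none was higher and 14 were lower (median -0.51), led by Ring1 (-0.86) and Phc1 (-0.82), and in brown fat 4 were higher and 6 lower. Of 11 Trithorax and demethylase genes, 2 were higher and 3 lower in epididymal fat (median 0.01), 0 and 4 in inguinal fat (median -0.42, with Men1 at -0.66), and 0 and 1 in brown fat. At 0d Cbx7 was lower in brown than in inguinal fat (-2.27 ± 0.16), and 4 Polycomb genes were higher and 9 lower (median -0.15).

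Transcription factors of body position outside the Hox clusters also differed by depot. Zic1, a gene of the dorsal midline, was higher in brown than in inguinal fat (9.71 ± 0.42), and Emx2 (-5.34) and Shox2 (-2.98), a limb gene, were lower. Wt1, a gene of mesothelium and gonad, was higher in epididymal than in inguinal fat (9.26 ± 0.42), where Tbx15 was lower (-7.31 ± 0.45). Of 14 tested at 12w in epididymal fat, none was higher (31% of all genes) and 9 were lower (29.3%), with a median of -0.65. The falls were led by Nr2f2 (-1.73 ± 0.20, adjusted p = 2.1e-12) and Nr2f1 (-1.46 ± 0.24). In inguinal fat 4 of 17 were higher (21.5% of all genes), among them Irx3 (1.42), and 3 lower (23.1%). In brown fat 1 of 15 was higher (14.4% of all genes) and 2 lower (13.2%), among them Zic1 (-0.71).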
